A study of Saccharomyces cerevisiae with 4 samples.

Results

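The genes described here were 32 genes of budding yeast that encode subunits of the 26S proteasome and RPN4, the gene of the transcription factor that drives them, 33 of the 5493 genes with a probe inside. SEM1, for a small subunit of the lid, is not among them. A gene was taken by its symbol or systematic name, and its value was the mean over the probes annotated inside it. The 33 genes held 136 such probes, between 2 and 13 a gene with a median of 4. None of these probes lay inside a second gene or was missing on an array.

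The study mapped RNA polymerase II on chromatin by ChIP-chip, in which DNA that comes down with a tagged protein (IP) is hybridised to an array against DNA of the whole-cell extract (WCE). Rpb3 is a core subunit of the polymerase, and Rpb4 belongs to a stalk that can leave the enzyme. Saccharomyces cerevisiae strains of the S288c background carried a TAP tag, an affinity tag that IgG beads bind, on Rpb3 (2 arrays) or on Rpb4 (2 arrays), and both were grown in YPD at 25 °C to log phase at an OD600 of about 0.8 and fixed with 1% formaldehyde for 20 min. Each group is 1 tagged strain, so strain and tagged subunit cannot be told apart. Whether the 2 arrays of a group had cultures of their own is not stated, so a p-value here reflects the spread between arrays alone, which may be technical. An untagged strain or a mock precipitation was not analysed here. The IP was in Cy5 and the WCE in Cy3 on each array, so any dye effect remains in the ratios. Values are log2(IP/WCE) centred on each array, so that 0 is its median probe, and they compare a gene with that reference and not with zero polymerase. With probes about 290 bp apart and fragments of about 400 to 500 bp, a probe also reads polymerase on its neighbours.

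Over all genes the arrays correlated at 0.930 within Rpb3 and 0.954 within Rpb4 (Pearson, across 5490 genes measured on every array, as a description). The median gap between the 2 arrays of a group over the 33 genes was 0.12 for Rpb3 and 0.05 for Rpb4, near the 0.14 and 0.03 of all genes. Across the 32 subunit genes, however, Rpb3 array 1 correlated at 0.887 and 0.890 with the Rpb4 arrays and at 0.724 with Rpb3 array 2. Rpb3 array 2 therefore stood apart from the other 3 for these genes, and the main Rpb4 minus Rpb3 differences are given without it too. Among genes that mark mating type, all 4 measured a-cell genes were above the median probe in both groups, while STE3, the pheromone receptor gene of alpha cells, was at -0.89 with Rpb3 and -0.95 with Rpb4.

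The 26S proteasome degrades proteins that carry ubiquitin chains. Its 20S core is a barrel of outer rings of alpha subunits and inner rings of beta subunits, which hold the protease sites, and its 19S particle has a base of ATPases that unfold the substrate and a lid that removes the ubiquitin. In yeast Rpn4 activates the subunit genes through an element named PACE in their promoters, and Rpn4 is itself degraded by the proteasome, which closes a feedback loop.

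All 33 genes were above the median probe with both subunits. By limma with Benjamini-Hochberg adjustment over all genes, 33 of 33 passed with Rpb3, where 38.4% of all genes passed in that direction, and 33 of 33 passed with Rpb4, where 37.9% did. The highest adjusted p among them was 0.0101 for Rpb3 and 0.0466 for Rpb4. The median of the 33 genes was 0.75 with Rpb3 and 0.64 with Rpb4, against 0.03 and 0.05 over all genes. Their median gene stood at the 87.9th and 84.3rd percentile of all genes on the Rpb3 arrays and at the 86.5th and 85.6th on the Rpb4 arrays. No member was under the 63.6th percentile on any array. Leaving out Rpb4 array 1 or 2 left 26 or 22 of the 33 past the threshold for Rpb4, where 19.5% and 18.4% of all genes were, and leaving out either Rpb3 array left 33 for Rpb3.

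**Figure D1:**
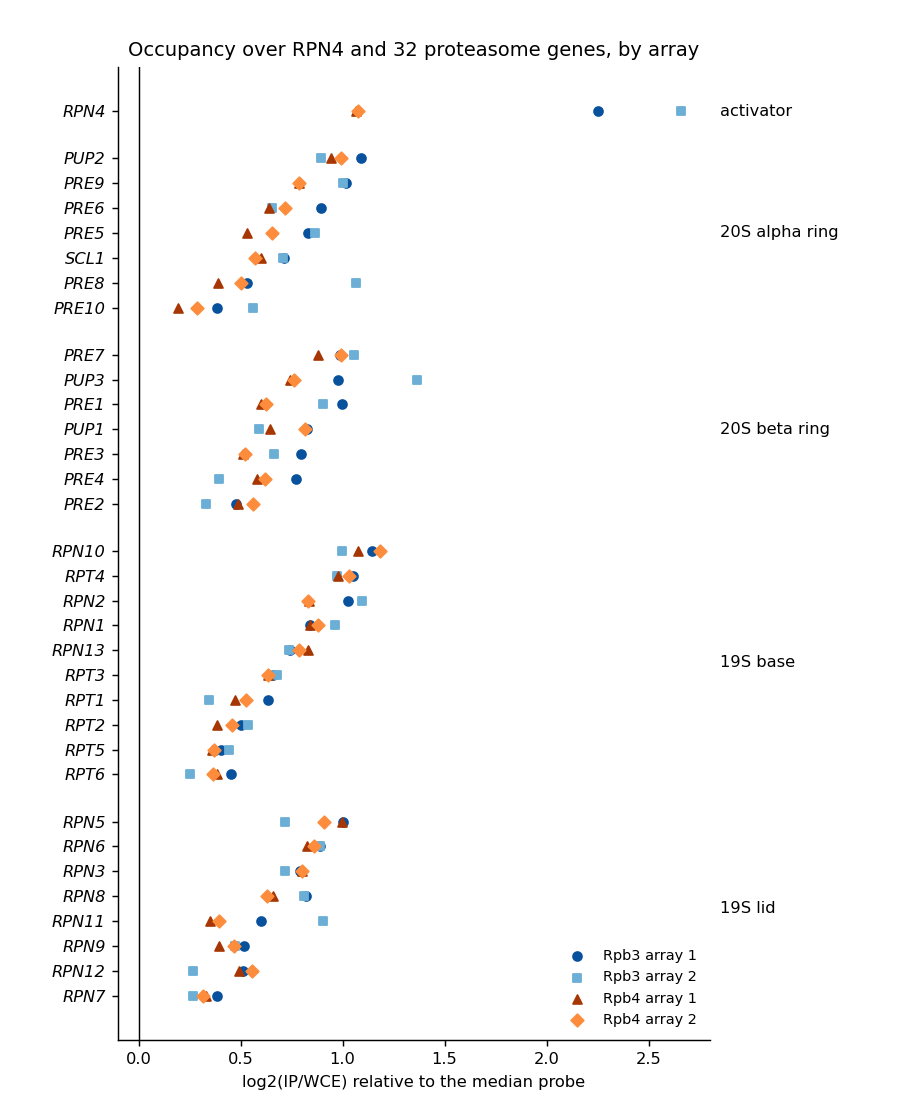
Log2(IP/WCE), with the median probe at 0, (x axis) of RPN4 and the 32 subunit genes (rows, by role, sorted by mean), 1 point per array. Every point is above 0, the subunit genes lie between 0.19 and 1.36, and RPN4 is at 2.25 and 2.66 on the Rpb3 arrays against 1.07 on both Rpb4 arrays.

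RPN4 (YDL020C, probes on chromosome 4 from 415133 to 416653 in the positions of the files, whose build is not given in the sources used here) had the highest Rpb3 value of the 33 genes. Its log2(IP/WCE) was 2.25 and 2.66 on the Rpb3 arrays. On the Rpb4 arrays it was 1.07 and 1.07. Both Rpb4 arrays were thus well below both Rpb3 arrays, and the gap between groups was larger than the 0.41 between the Rpb3 arrays. RPN4 stood at the 98.7th and 98.9th percentile of all genes with Rpb3 and at the 93.6th and 93.0th with Rpb4. On a linear scale the group means were 5.48 and 2.10 times the median probe.

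The Rpb4 minus Rpb3 difference of RPN4 was -1.38 ± 0.15 (SE, n = 2 arrays a group, 95% interval -1.79 to -0.98), which is 2.61-fold lower with Rpb4 (limma, adjusted p = 0.0285). It was the only one of the 33 genes to pass in this comparison, in which 2.51% of all genes were lower and 0.929% higher. By the size of the difference it was 29th lowest of 5490 genes. Over the 12 alternatives the difference ran from -1.67 to -1.03, and it passed in each that kept all 4 arrays. The filters on probes that differed in WCE between the strains and on probes inside more than 1 gene removed none of its probes. They could not change its value. Leaving out Rpb4 array 1 or 2 gave -1.38 and -1.39, and leaving out Rpb3 array 1 or 2 gave -1.59 and -1.18. In these fits the spread came from the other group alone, and whether the difference passed depended on the array left out.

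Both channels moved with this difference. Centred on its own median, the IP signal over RPN4 was 1.41 and 1.86 on the Rpb3 arrays and 0.64 and 0.62 on the Rpb4 arrays, a difference of -1.01. The WCE signal was -0.80 and -0.79 on the Rpb3 arrays and -0.39 and -0.41 on the Rpb4 arrays, a difference of 0.39. That is the 99.2nd percentile of WCE differences over all genes, 5 to 95% of which lay between -0.26 and 0.14. The part of the WCE signal in the result was not tested.

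The lower Rpb4 value held along the whole gene. The 5 probes inside RPN4, from 81 to 1542 bp after its start, were at 2.29 to 2.65 with Rpb3 and at 0.94 to 1.25 with Rpb4 (means of 2 arrays). Upstream of the gene the values peaked, at 299 bp before the start, at 2.91 and 3.18 on the Rpb3 arrays and 1.86 and 1.69 on the Rpb4 arrays. At 503 bp before the start the means had dropped to 1.03 with Rpb3 and 0.49 with Rpb4. Each of the 9 probes was higher on both Rpb3 arrays than on both Rpb4 arrays.

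**Figure D2:**
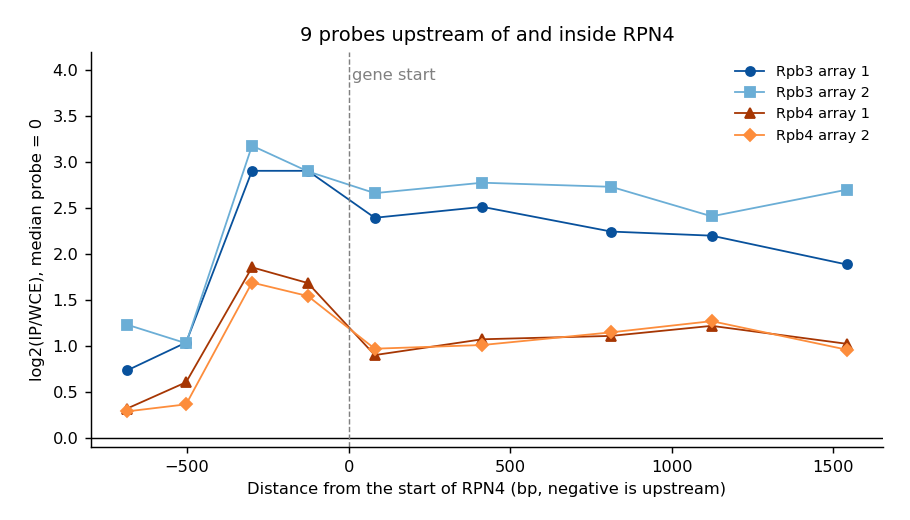
Log2(IP/WCE), with the median probe at 0, (y axis) of the probes upstream of and inside RPN4 by distance from its start in bp (x axis), 1 line per array, with the dashed line at the start. Both Rpb3 lines run above both Rpb4 lines at every probe, and all 4 are highest between 299 and 126 bp upstream.

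The 7 genes of the 20S alpha ring, which gates the barrel, had a median of 0.80 with Rpb3 and 0.59 with Rpb4. PUP2 had the highest mean of them over the 4 arrays, at 1.09 and 0.89 on the Rpb3 arrays and 0.94 and 0.99 on the Rpb4 arrays, so its groups overlapped. PRE9, whose product is the only core subunit that yeast can live without, was at 1.02 and 1.00 with Rpb3 and 0.78 and 0.79 with Rpb4. PRE10 was the lowest of all 33 genes with Rpb4, at 0.19 and 0.28, and was at 0.39 and 0.56 with Rpb3. PRE8 differed most between the Rpb3 arrays, at 0.53 and 1.06, and was at 0.39 and 0.50 with Rpb4. PRE6, PRE5 and SCL1 had Rpb3 means of 0.77, 0.85 and 0.71 and Rpb4 means of 0.68, 0.59 and 0.58.

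The 7 genes of the 20S beta ring had a median of 0.73 with Rpb3 and 0.61 with Rpb4. PUP3, which encodes a beta subunit without a protease site, had the second highest Rpb3 value of the 33, at 0.98 and 1.36, against 0.74 and 0.76 with Rpb4. Its 2 Rpb4 arrays were below its 2 Rpb3 arrays, but the Rpb3 arrays lay 0.39 apart, close to the difference of 0.42 between the group means. Of the genes for the protease sites, PRE2, for the chymotrypsin-like site, had means of 0.40 and 0.53 with Rpb3 and Rpb4. PUP1, for the trypsin-like site, had means of 0.71 and 0.73, and PRE3, for the caspase-like site, of 0.73 and 0.52. PRE7, PRE1 and PRE4, for the other beta subunits, had Rpb3 means of 1.02, 0.95 and 0.58 and Rpb4 means of 0.94, 0.61 and 0.60.

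The 10 genes of the 19S base had a median of 0.70 with Rpb3 and 0.72 with Rpb4. RPN10, for a ubiquitin receptor that sits between base and lid, was the highest subunit gene with Rpb4, at 1.07 and 1.18, and was at 1.14 and 1.00 with Rpb3. RPT4, for one of the ATPases, was at 1.05 and 0.97 with Rpb3 and 0.98 and 1.03 with Rpb4. For both genes the groups overlapped. The other ATPase genes were lower. RPT6 was at 0.45 and 0.25 with Rpb3 and 0.39 and 0.37 with Rpb4. RPT5 was at 0.41 and 0.44 with Rpb3 and 0.36 and 0.37 with Rpb4. RPT1, RPT2 and RPT3 had Rpb3 means of 0.49, 0.52 and 0.67 and Rpb4 means of 0.50, 0.42 and 0.64. The scaffold genes RPN1 and RPN2 and the receptor gene RPN13 had Rpb3 means of 0.90, 1.06 and 0.74 and Rpb4 means of 0.86, 0.83 and 0.81.

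The 8 genes of the 19S lid among them had a median of 0.75 with Rpb3 and 0.58 with Rpb4. RPN7, a scaffold gene of the lid, had the lowest mean of the 33 over the 4 arrays, at 0.38 and 0.27 with Rpb3 and 0.33 and 0.32 with Rpb4. RPN12 was at 0.51 and 0.27 with Rpb3 and 0.49 and 0.55 with Rpb4. In both of these genes Rpb3 array 2 was the lowest of the 4. RPN11, for the deubiquitinase of the lid, was at 0.60 and 0.90 with Rpb3 and 0.35 and 0.39 with Rpb4, with no overlap between the groups. RPN8, whose product pairs with Rpn11, had means of 0.82 and 0.64, and the scaffold genes RPN3, RPN5, RPN6 and RPN9 had Rpb3 means of 0.75, 0.86, 0.89 and 0.49 and Rpb4 means of 0.80, 0.95, 0.84 and 0.43.

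Apart from RPN4, no subunit gene passed the test of Rpb4 minus Rpb3 (limma, 0 of 32). Under an unadjusted p of 0.05 were 9 of the 32, as were 1198 of all 5490 genes. The differences ran from -0.42 for PUP3 (± 0.14 SE, adjusted p = 0.205) and -0.38 for RPN11 (± 0.12 SE, adjusted p = 0.184) to 0.13 for RPN12, and the lowest adjusted p was 0.0801, for PRE1 at -0.34. All 32 intervals lay within 1 log2 unit of 0, from -0.88 at the lowest to 0.41 at the highest. A difference of the size seen for RPN4 was thus outside every subunit gene's interval. With 1 array left out, the spread of a gene came from the 2 arrays of the other group alone, so the number passing followed that group's spread. The median difference of the 32 subunit genes was -0.04 and -0.09 without Rpb3 array 1 or 2. Without Rpb4 array 1 or 2 it was -0.03 and -0.06.

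**Figure D3:**
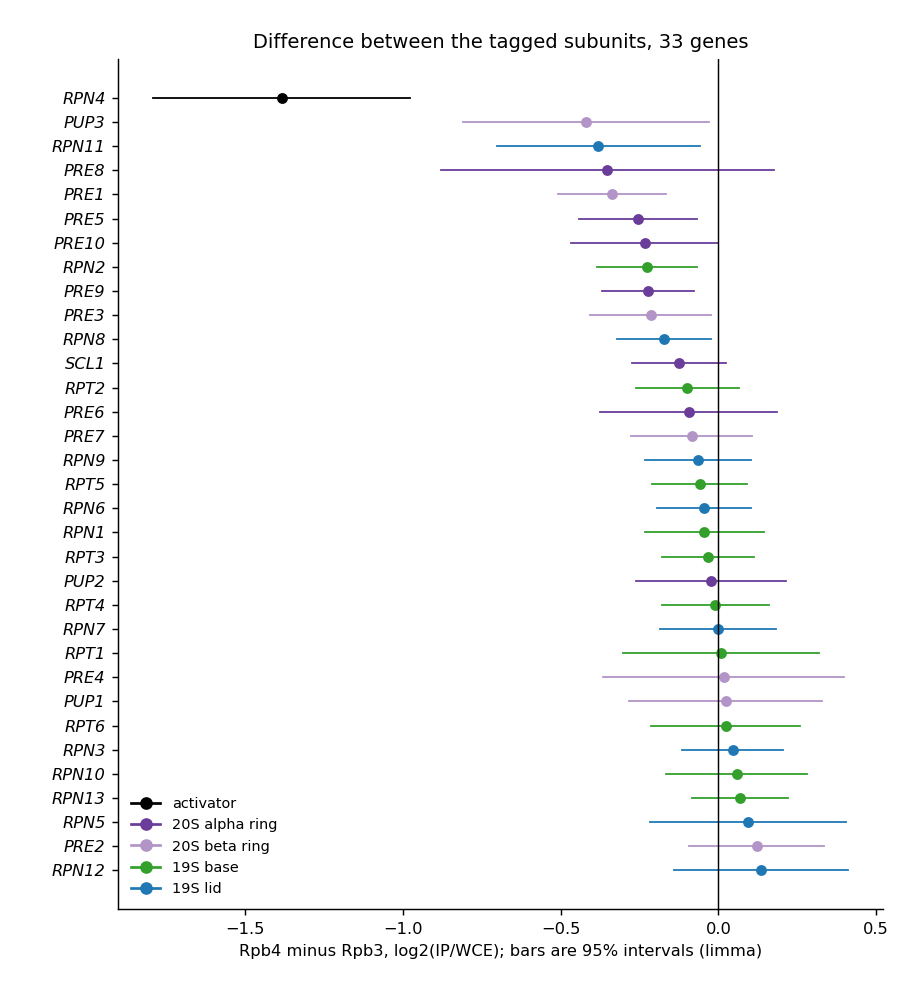
Rpb4 minus Rpb3 difference in log2(IP/WCE) with its 95% interval from limma (x axis) for the 33 genes (rows, sorted), coloured by role, with 2 arrays a group. RPN4 lies at -1.38, and the 32 subunit genes lie between -0.42 and 0.13.

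In 17 of the 33 genes both Rpb4 arrays were below both Rpb3 arrays, which 28.7% of all genes were, and in 3 both were above, which 31.8% were. The difference was below 0 in 23 of 33, against 46.4% of all genes. The 14 genes of the 20S core had a median difference of -0.17 with 11 below 0, among them 7 of 7 alpha ring genes. The 18 genes of the 19S particle had a median of -0.02 with 11 below 0. These small differences depended on the scaling. Of the 32 subunit genes, 22 were below 0 with a median of -0.05. When the arrays were brought to one spread 15 were, with a median of 0.05, and with quantile normalization 11, with 0.07. Normexp background gave 24 with a median of -0.16, and centring on meiosis genes gave 27 with a median of -0.10. The core medians in the latter settings were -0.30 and -0.22, and those of the 19S genes -0.07 and -0.07. With the arrays brought to one spread the core median was -0.07 and that of the 19S genes 0.06, and with quantile normalization they were -0.02 and 0.09, with 4 of 7 alpha ring genes below 0. Over the 4 pairings of an Rpb4 with an Rpb3 array, the core median ran from -0.19 to -0.14 and that of the 19S genes from -0.07 to 0.02.

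The 3' minus 5' value of a gene is the mean of the probes in the 3' part minus that in the 5' part of the tiled span, and 19 of the 33 genes had the 4 probes it needs. Like genes in general, most of the 19 had a larger value toward the 3' end. It was above 0 in 16 of 19 with Rpb3, against 74.8% of 3526 genes, and in 18 of 19 with Rpb4, against 86.2%. By limma it was higher than 0 with Rpb3 in 5 and lower in 1 of 19, where 30.3% and 3.89% of all genes were. With Rpb4 it was higher in 13 and lower in 1, where 41.1% and 2.55% were. The median over the 19 was 0.18 with Rpb3 and 0.34 with Rpb4, against 0.17 and 0.24 over all 3526 genes. These counts moved when single arrays were left out, with the spread then taken from the other group alone, and those of all genes moved too.

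RPN10 had the largest 3' minus 5' value by its mean over the 4 arrays, at 0.81 and 0.92 on the Rpb3 arrays and 0.96 and 1.12 on the Rpb4 arrays (adjusted p = 0.00531 and 0.00522). Its probe at 21 bp was at 0.51 with Rpb3 and 0.33 with Rpb4, and that at 722 bp was at 1.50 and 1.63. RPN8 was at 0.54 and 1.27 with Rpb3 and 0.73 and 0.63 with Rpb4, so its Rpb3 mean of 0.90 rested in large part on Rpb3 array 2. RPT4 was at 0.48 and 0.08 with Rpb3, which did not pass, and at 0.75 and 0.72 with Rpb4, which did (adjusted p = 0.0112). RPN3 was the only gene of the 19 that passed as lower at its 3' end, at -0.28 and -0.47 with Rpb3 and -0.28 and -0.25 with Rpb4 (adjusted p = 0.0223 and 0.0433). Its first probe, 5 bp after the start, was at 1.48 and 1.22. RPN4 was at -0.34 and -0.11 with Rpb3 and 0.13 and 0.14 with Rpb4, and neither passed.

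The 3' minus 5' value was larger with Rpb4 than with Rpb3 in 16 of the 19 genes and in 63.9% of all 3526, but the difference passed in none of the 3526 (limma, 0%, with 319 genes, 4 of them among the 19, under an unadjusted p of 0.05). In 13 of the 19 both Rpb4 arrays were above both Rpb3 arrays, which held for 40.8% of the 3526. The median difference of the 19 was 0.17, and it was 0.20 and 0.17 without Rpb3 array 1 or 2. It was above 0 under each of the 9 alternatives run, but that with at least 6 probes held only RPN1, RPN2 and RPN3. Each such difference is a contrast within the same probes of a gene, so the array's centre does not enter it. The WCE signal does enter it. In RPT4, with the largest difference (0.46), the Rpb4 minus Rpb3 WCE signal was 0.08 at 296 bp and -0.23 at 1159 bp. In RPN8, with the lowest (-0.22), it was 0.06 at 174 bp and 0.07 at 933 bp. The part of the WCE signal in these differences was not tested.

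**Figure D4:**
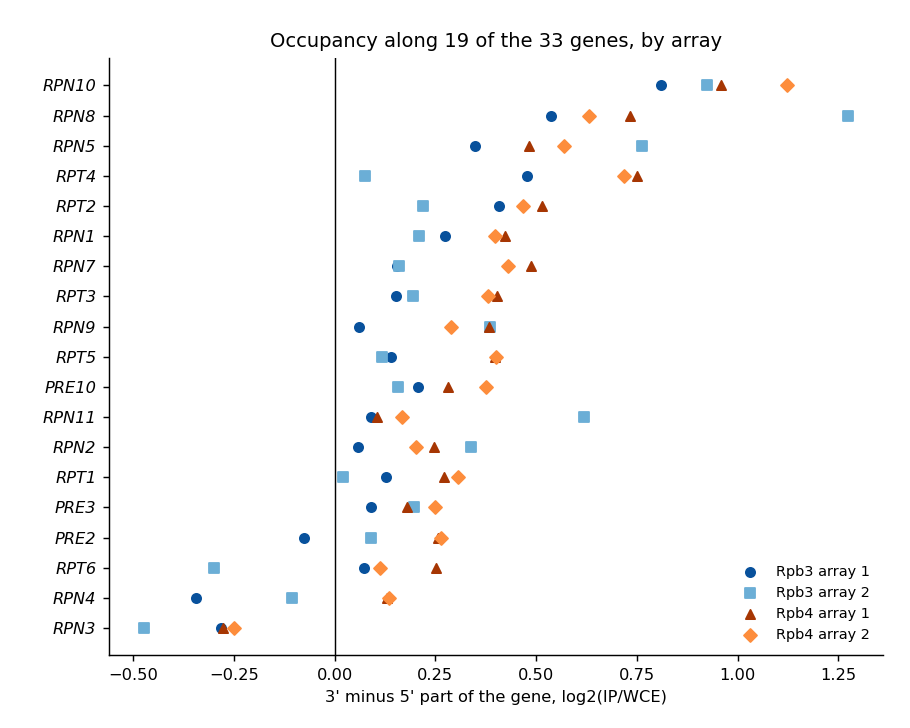
Mean log2(IP/WCE) of the 3' part minus that of the 5' part (x axis) of the 19 genes with at least 4 probes (rows, sorted by mean), 1 point per array. RPN10 is between 0.81 and 1.12 on all 4 arrays, and RPN3 is below 0 on all 4.

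Probes upstream of the genes were compared with those inside. With Rpb3 the promoter mean minus the inside mean was higher than 0 in 7 and lower in 15 of the 33 genes, where 29.4% and 23.7% of 5037 genes were. With Rpb4 it was higher in 2 and lower in 16, where 17.1% and 33.8% were. These counts, and those of all genes, moved when any 1 array was left out, with the spread then taken from the other group alone. The reach of the promoter probes differs between genes, and those of RPT2 run to 1712 bp before its start, so the mean also holds DNA far from the gene.

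PRE4 and RPN9 had the highest values with Rpb3. PRE4 was at 0.44 and 1.50 with Rpb3, which makes its mean of 0.97 depend on Rpb3 array 2, and at 0.13 and 0.09 with Rpb4. RPN9 was at 0.76 and 1.06 with Rpb3 (adjusted p = 0.00273) and at 0.36 and 0.44 with Rpb4 (adjusted p = 0.0285). Both have 1 promoter probe, 61 and 57 bp before the start. PRE6, next after RPN9 with Rpb4, was at 0.38 and 0.39 there and at 0.74 and 0.84 with Rpb3, from probes shared with a gene that runs the other way. RPN2 had a promoter level of 1.68 and 2.05 with Rpb3 and 0.82 and 0.86 with Rpb4, after RPN4 the second highest mean promoter level with Rpb3.

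PRE7 was lowest with Rpb3, at -1.19 and -1.44, and was at -1.18 and -1.34 with Rpb4. RPT2 was lowest with Rpb4, at -1.24 and -1.37, and was at -1.17 and -1.17 with Rpb3. In both genes the probe nearest the start was well above the farther ones. That of PRE7, at 51 bp, was at 0.50 with Rpb3 and 0.42 with Rpb4, while that at 555 bp was at -0.92 and -0.85.

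The promoter minus inside value was lower with Rpb4 than with Rpb3 in 22 of the 33 genes and in 75.6% of all 5037. The difference passed in none of the 5037 (limma, 0%, with 1364 genes, 15 of them among the 33, under an unadjusted p of 0.05). The median difference was -0.27 over the 33 genes and -0.19 over all genes. Over the 33 genes it was -0.27 and -0.25 without Rpb3 array 1 or 2. RPN4 ran the other way, at -0.35 and -0.57 with Rpb3 and 0.05 and -0.10 with Rpb4. The WCE signal enters these differences too. In PRE4, with the lowest difference (-0.86), the Rpb4 minus Rpb3 WCE signal was 0.27 at the promoter probe and -0.05 inside. In PRE10, with the highest (0.48), it was between 0.04 and 0.11 at the promoter probes and 0.02 inside. The part of the WCE signal was not tested.

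Of the 33 genes, 18 share a divergent promoter with a neighbour that has its own values. The neighbour had the lower mean in 14 of 18 pairs with Rpb3 and in 16 of 18 with Rpb4, with medians of 0.32 and 0.32 against 0.78 and 0.69 for the proteasome genes of these pairs. The neighbour of PUP2 is ENO1, for the glycolytic enzyme enolase, which was at 2.26 and 2.84 with Rpb3 and 2.83 and 3.09 with Rpb4. Its groups overlapped, and its Rpb4 minus Rpb3 difference was -0.21 in the IP signal and -0.60 in the WCE signal. MPO1, the neighbour of SCL1, was at 1.20 and 1.41 with Rpb3 and 0.34 and 0.35 with Rpb4 (difference -0.96 ± 0.09 SE, adjusted p = 0.0229), while SCL1 itself differed by -0.13. The adjusted p of MPO1 was 0.105 and 0.124 without Rpb4 array 1 or 2. FUI1, the uridine permease gene across from PRE7, was at 0.20 and 0.26 with Rpb3 and 0.65 and 0.69 with Rpb4. Its difference was 0.44 ± 0.06 (SE, limma, adjusted p = 0.0461). The IP and WCE signals differed by -0.74 and 0.24 over MPO1 and by 0.23 and -0.19 over FUI1. The part of the WCE signal in these values was not tested. Without Rpb4 array 1 or 2 the adjusted p of FUI1 was 0.561 and 0.597, with centring on meiosis genes 0.0951 and with the median over probes 0.0518.

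Among 17 genes for assembly factors and accessory proteins of the proteasome, 10 were above and 3 below the median probe with Rpb3, and 8 were above and 4 below with Rpb4. Over all genes 38.4% were above and 29.2% below with Rpb3, and 37.9% were above and 25.8% below with Rpb4. Their medians were 0.28 and 0.06. POC4, for a chaperone that builds the alpha ring, had the highest mean over the 4 arrays, at 1.73 and 2.06 on the Rpb3 arrays and 0.92 and 0.97 on the Rpb4 arrays. It was the only gene of the list to pass between the groups, at -0.95 ± 0.13 (SE, adjusted p = 0.0446), and its groups did not overlap. Without Rpb4 array 1 or 2 its adjusted p was 0.182 and 0.173, with centring on meiosis genes 0.0578, with one spread 0.0649 and with the median over probes 0.0697. TMC1, measured by 1 probe, was at 1.31 and 1.51 with Rpb3 and 0.94 and 1.08 with Rpb4. SPG5, which acts on the proteasome in stationary phase, had the lowest mean over the 4 arrays, at -0.40 and -0.25 with Rpb3 and -0.50 and -0.43 with Rpb4.

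Among 29 genes of the ubiquitin system, 16 were above and 5 below the median probe with Rpb3 (55.2% and 17.2%). With Rpb4 13 were above and 5 below (44.8% and 17.2%). Of all genes 38.4% and 29.2% were with Rpb3 and 37.9% and 25.8% with Rpb4. The medians of the 29 were 0.21 and 0.13. None passed for Rpb4 minus Rpb3 (limma, with 5 under an unadjusted p of 0.05, as were 1198 of all 5490 genes). CDC48, for the segregase that extracts ubiquitinated proteins, was at 1.18 and 1.32 with Rpb3 and at 1.32 and 1.32 with Rpb4. UBI4, the polyubiquitin gene, was at 0.91 and 1.30 with Rpb3 and 1.35 and 1.40 with Rpb4. Its Rpb4 minus Rpb3 difference was 0.004 in the IP signal and -0.25 in the WCE signal. HRD3, of the ubiquitin ligase of the endoplasmic reticulum, had the lowest mean over the 4 arrays, at -0.36 and -0.49 with Rpb3 and -0.26 and -0.27 with Rpb4.

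Of 7 genes that regulate RPN4 or the stability of its protein, 4 were above and 1 below the median probe with each subunit. The shares of all genes above and below were 38.4% and 29.2% with Rpb3 and 37.9% and 25.8% with Rpb4. YAP1, for the oxidative stress activator, was at 0.59 and 0.48 with Rpb3 and 0.51 and 0.49 with Rpb4. RAD6, for the ubiquitin conjugating enzyme that works with UBR2 and MUB1 on Rpn4, was at 0.43 and 1.00 with Rpb3 and 0.17 and 0.25 with Rpb4. UBR2 was the lowest, at -0.22 and -0.28 with Rpb3 and -0.20 and -0.26 with Rpb4.

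PDR3, for a drug resistance activator that binds the RPN4 promoter, went the other way from RPN4. It was at -0.07 and -0.21 on the Rpb3 arrays and at 1.02 and 1.01 on the Rpb4 arrays, with no overlap. The difference was 1.15 ± 0.07 (SE, adjusted p = 0.0115), with 0.80 in the IP signal and -0.34 in the WCE signal. Without Rpb4 array 1 or 2 the adjusted p was 0.0569 and 0.0785. The part of the WCE signal in it was not tested.

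**Figure D5:**
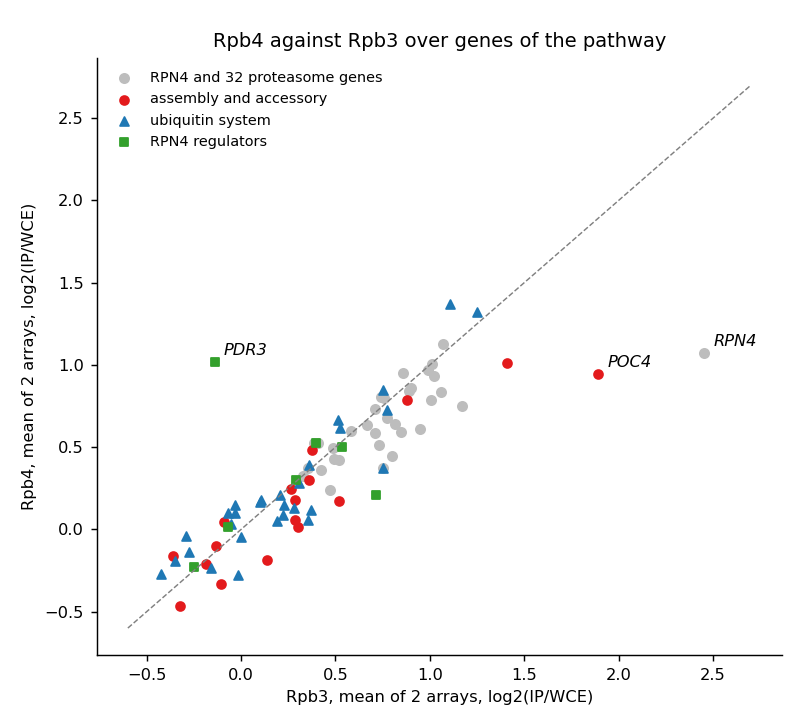
Mean log2(IP/WCE) of the 2 Rpb4 arrays (y axis) against that of the 2 Rpb3 arrays (x axis) for the 33 genes and 3 other lists of the pathway, with the dashed line where both are equal. RPN4 (2.45 and 1.07) and POC4 (1.89 and 0.94) lie below the line, and PDR3 (-0.14 and 1.02) lies above it.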

How the data were processed

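Per the submitters' processing notes, the scanner software was Agilent Feature Extraction 9.1. Each of the authors' files lists foreground, background and normalized intensity of both channels with their log2 ratio, per the file headers. Tested on the files, the normalized intensity deposited was foreground minus background minus a constant, with WCE then multiplied by a factor of 0.691, 0.446, 0.808 or 0.928. The series table repeated these log2 values as deposited (medians -0.042, -0.005, -0.035 and -0.040, of the same scale and direction), so it was no separate alternative. The sources used here give neither the normalization software nor the genome build. Of the spots on an array, 41775 were data probes and 3444 control spots, which were not used. Between 81 and 179 probes an array that the authors excluded counted as missing. The foreground was, in the median, 72.9 to 126 times background in IP and 151 to 168 times in WCE, and the number of arrays limits the precision. All 4 arrays lay on 1 slide.

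Log2(IP/WCE) was centred on the array's median probe and averaged over the probes inside a gene. The R64 table, used for gene names, held 5478 of the 5493 genes, and the strand was read from the systematic name. Gene values of 5490 genes entered a fit in R 4.3.3 with limma 3.58.1 (lmFit, eBayes, two-sided, Benjamini-Hochberg at 0.05 over all genes) on all 4 arrays, after a test on simulated data. Alternatives were other centring, spread, quantile, normexp background (offset 50), probe filters, the median over probes, and leaving out each array. The members and lists were chosen with earlier results of these data known. Values on every array are given for RPN4, the 3 highest and 3 lowest genes with each subunit, those passing or with the 3 largest differences, the 2 largest and the smallest along-gene and promoter values, and in each other list the 2 highest, the lowest and those passing. PRE9, PRE8, RPN2 and the promoter neighbours were added after their values were seen.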

Additional observations from a re-analysis of the deposited data

Results flagged for a closer look

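For 3 genes a test of the difference found that the value differed between the Rpb3 and the Rpb4 arrays. RPN4 differed by -1.38 and POC4 by -0.95, both lower with Rpb4, and PDR3 differed by 1.15, higher with Rpb4. Their WCE signals differed in the opposite direction, by 0.39, 0.27 and -0.34.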

How the results depend on the processing

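The 33 genes had 66 levels (33 with each subunit), and none changed sign under the 12 alternatives. Several of these could not change a sign. The filters on probes that differed in WCE between the strains and on probes inside more than 1 gene removed no probe of the 33 genes. Leaving out an array left the means of the other group as they were, and centring on meiosis genes raised every value. Without dim probes 2 levels no longer passed, both of RPN12, and without Rpb4 array 1 or 2, 7 and 11 did not. Leaving out each array in turn gave 33 members above the median probe with Rpb3 and 22 to 33 with Rpb4, and 1732 to 2507 and 1010 to 2659 of all genes. Centring on meiosis genes moved the median of all genes by 0.66 and 0.61 and put 5040 and 5002 genes above. Normexp background moved that median by 0.13 and 0.11. The median of the 33 genes, 0.75 with Rpb3 and 0.64 with Rpb4, became 1.42 and 1.25 with centring on meiosis genes. It became 1.41 and 1.25 with normexp background, and for Rpb4 0.71 with quantile normalization.

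For Rpb4 minus Rpb3, normexp background gave 2 members lower, 277 genes lower and 103 higher, and quantile normalization gave 189 higher. Leaving out an array gave 0 to 12 members lower, 0 to 6 higher, 0 to 1592 genes lower and 0 to 1843 higher. The median difference of the 33 genes was -0.06 and became 0.04 with one spread, 0.05 with quantile normalization and -0.18 with normexp background. POC4 passed in 7 of 12 alternatives (-1.25 to -0.65, adjusted p 0.000266 to 0.182), PDR3 in 10 (0.95 to 1.57, adjusted p 0.000194 to 0.0785) and MPO1 in 10 (-1.51 to -0.77), FUI1 passed in 8 (0.39 to 0.72), and for PDR3 and MPO1 both losses came with an Rpb4 array left out. The adjusted p of RPN4 ran from 0.00015 to 0.0965. Neither PUP3 nor RPN11 passed in any alternative that kept all 4 arrays. Without Rpb3 array 1 or 2 the difference was -0.61 and -0.23 for PUP3 and -0.53 and -0.23 for RPN11.

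For 3' minus 5', requiring at least 6 probes left 1 member higher with each subunit, since fewer genes were tested, and normexp background gave 2 lower with Rpb3. Leaving out an array gave 3 to 13 higher and 0 to 3 lower with Rpb3, 1 to 18 and 0 to 1 with Rpb4, and 0 to 12 and 0 to 3 for the difference. For promoter minus inside, single-gene promoters alone gave 5 higher and 5 lower with Rpb3 and 1 higher and 2 lower with Rpb4. This setting left out the genes with divergent promoter probes alone, so fewer genes were tested than in the main counts. Normexp background gave 0 higher with Rpb4 and 1 lower for the difference, and quantile normalization 3 lower for the difference. Leaving out an array gave 6 to 11 higher and 12 to 19 lower with Rpb3, 0 to 4 and 3 to 22 with Rpb4, and 0 to 10 and 0 to 20 for the difference. Unless stated above, the cause was not tested.

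When 1 array was left out, the lone array was assumed to vary like the other group. No paired analysis was possible because the labels carry no replicate numbers. The slide as a block and the search for the PACE element were not run, the first because all arrays lay on 1 slide and the second because no promoter sequence was used here.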

Other observations

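SEM1, measured by 1 probe, was at 0.98 and 0.78 with Rpb3 and 0.76 and 0.81 with Rpb4. UBA1, for the ubiquitin activating enzyme, was at 0.75 and 0.79 with Rpb3 and 0.71 and 0.75 with Rpb4. SHP1, for a cofactor of Cdc48, was at 0.73 and 0.77 with Rpb3 and 0.81 and 0.88 with Rpb4. Of the 4 chaperone genes of the 19S base, HSM3 was at -0.18 with Rpb3 and -0.21 with Rpb4, and RPN14 at -0.36 and -0.16 (group means). NAS2 was at -0.11 and -0.33, with Rpb4 minus Rpb3 differences of -0.62 in the IP signal and -0.37 in the WCE signal. By its systematic name it lies on chromosome 9, as RPN2 does. NAS6 was at 0.30 with Rpb3, above the median probe (limma, adjusted p = 0.00392), and 0.01 with Rpb4. These 7 genes were picked after their values were seen, and none of them passed for Rpb4 minus Rpb3.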
